A study of Homo sapiens with 20 samples.

Results

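Small nucleolar RNA host genes carry the RNAs that guide the modification of ribosomal and spliceosomal RNA inside their introns. Here they were taken as the genes whose symbol is SNHG followed by a number, together with GAS5, ZFAS1, DANCR and EPB41L4A-AS1, which gave 28 of the 58288 genes in the count files. Of the 28 genes, 25 had enough counts to be tested, SNHG28 had 11 counts over all libraries, and SNHG18 and SNHG27 had 0 counts, that is, were not detected at this depth. The 20 libraries of polyadenylated RNA came from 2 diffuse large B-cell lymphoma lines, DOHH2 and U2932, each given a compound labelled TK or its vehicle DMSO. In DOHH2 there were 3 TK and 2 DMSO libraries at 18 h and 3 TK and 3 DMSO libraries at 8 h. In U2932 there were 3 TK libraries and 1 DMSO library at 18 h and 2 TK and 3 DMSO libraries at 8 h. The labels give neither the dose nor the identity of TK, and nothing in them tells separate cultures from repeated preparations, so p-values measure the spread between these libraries, which may be technical. Each line is 1 line, so a difference between DOHH2 and U2932 is a difference between these lines and not between lymphoma types.

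Box C/D small nucleolar RNAs guide 2′-O-methylation and box H/ACA RNAs guide pseudouridylation, while the related small Cajal body RNAs guide the same changes on spliceosomal RNAs. In mammals most of them are cut out of introns, and the spliced exons of the host are a by-product or a separate long noncoding RNA. Many hosts, GAS5 first among them, start at a 5′ terminal oligopyrimidine (TOP) tract, as ribosomal protein genes do, and their spliced RNAs are translated briefly and removed by nonsense-mediated decay, so that their level depends on growth and translation. In RefSeq, 27 of the 28 genes contain at least 1 such RNA, and the 144 found include 115 with box C/D names, 21 with box H/ACA names and 4 small Cajal body RNAs. SNHG14 alone holds 84, mainly the imprinted SNORD115 and SNORD116 clusters, GAS5 holds 11 and SNHG1 holds 9. The libraries measured the polyadenylated hosts and hardly the small RNAs themselves. Of 137 small nucleolar and Cajal body RNA genes that the GENCODE annotation places inside the hosts, 8 had any count, led by SNORA73B of SNHG3 with 734 counts in all 20 libraries together.

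The RefSeq starts of the hosts that lead the results below are shown because the start of the RNA is where a TOP tract lies. Each window covers 40 bases before and 50 bases from the RefSeq start on the transcribed strand (GRCh38.p14), and capitals mark TATAA between bases -40 and -20 and CTTT between bases -10 and 46, where base 0 is the first base of the RNA. The first 3 are the most abundant hosts, and the other 7 are those with a window that had 1 of the 5 smallest p and an unadjusted p under 0.05 in a TK comparison.
GAS5: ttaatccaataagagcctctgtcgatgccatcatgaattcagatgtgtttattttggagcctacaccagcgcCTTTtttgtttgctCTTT
SNHG5: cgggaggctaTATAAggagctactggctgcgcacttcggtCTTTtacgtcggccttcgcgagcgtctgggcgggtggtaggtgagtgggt
SNHG1: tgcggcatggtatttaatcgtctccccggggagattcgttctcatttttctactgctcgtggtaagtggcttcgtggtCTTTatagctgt
SNHG12: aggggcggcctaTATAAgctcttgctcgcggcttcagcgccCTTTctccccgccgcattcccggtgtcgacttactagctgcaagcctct
SNHG19: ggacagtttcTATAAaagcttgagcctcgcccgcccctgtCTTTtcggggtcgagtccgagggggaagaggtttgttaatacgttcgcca
ZFAS1: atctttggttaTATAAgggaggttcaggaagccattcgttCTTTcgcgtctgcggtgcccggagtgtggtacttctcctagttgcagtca
SNHG10: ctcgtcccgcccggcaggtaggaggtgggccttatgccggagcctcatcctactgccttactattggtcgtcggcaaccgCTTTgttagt
SNHG20: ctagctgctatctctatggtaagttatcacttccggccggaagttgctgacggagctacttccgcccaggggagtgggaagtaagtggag
SNHG21: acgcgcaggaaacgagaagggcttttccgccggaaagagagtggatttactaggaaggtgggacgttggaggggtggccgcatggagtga
DANCR: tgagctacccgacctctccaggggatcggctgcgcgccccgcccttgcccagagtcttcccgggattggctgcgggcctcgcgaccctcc

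The windows lie at chr1:173868996-173869085 for GAS5, chr6:85678684-85678773 for SNHG5, chr11:62855836-62855925 for SNHG1, chr1:28581824-28581913 for SNHG12, chr16:2155309-2155398 for SNHG19 and chr14:95534823-95534912 for SNHG10, all on the minus strand. Those of ZFAS1, chr20:49278602-49278691, SNHG20, chr17:77088603-77088692, SNHG21, chr15:82750524-82750613, and DANCR, chr4:52712354-52712443, are on the plus strand. The RefSeq start can differ from the outermost start of the gene in GENCODE v29. The GAS5 window lies wholly before that start (173868882). The windows of SNHG12 (28583132), SNHG20 (77086716) and ZFAS1 (49278178) lie wholly past it, so none of these windows covers the GENCODE start. Of the 28 genes, 24 had a window in RefSeq, and SNHG6, SNHG9, SNHG15 and SNHG25 did not. TATAA stood on the transcribed strand in that stretch in 6 of 24 hosts (SNHG5, SNHG7, SNHG8, SNHG12, SNHG19 and ZFAS1), against 4.22% of 27305 genes. On the other strand TATAA stood in 1 of 24 hosts and in 1.73% of all genes. CTTT stood on the transcribed strand from base -10 to base 46 in 12 of 24 hosts, against 20.7% of all genes, and on the other strand in 3 of 24 hosts (12.5%), against 19.5% of all genes. In SNHG5, SNHG19 and ZFAS1 the CTTT began at base 0. In GAS5 it began at bases 32 and 46 and not at the RefSeq start. DANCR, SNHG20 and SNHG21 held neither motif in these stretches. The 2 motifs do not overlap each other, and a match of letters is a description of these windows and not a site.

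The libraries held 30363255 to 52275430 counts in genes. Reads not assigned to a gene were 32.7 to 43.0% of the total in 19 libraries and 62.7% in DOHH2 TK 18 h replicate 1, which also stood apart in these genes: it was the lowest of the 11 DOHH2 libraries for 18 of 25 hosts, against 18.8% of all genes tested. Host counts and log2 values of DOHH2 TK at 18 h are therefore also given without it; values of the 4 gene lists are not. All 8 B-cell markers were above 1 CPM (counts relative to the scaled library total) in every library. T-cell markers (6 genes) summed to 0.619 to 1.21 CPM in DOHH2 and 2.75 to 7.51 CPM in U2932, myeloid markers (6 genes) to 0.0977 to 0.951 CPM in DOHH2 and 1.24 to 2.57 CPM in U2932, and fibroblast and epithelial markers (6 genes) to 5.15 to 30.9 CPM in DOHH2 and 22.4 to 34.2 CPM in U2932. CD3D and MPO were at 0 in every DOHH2 library, and the part of these RNAs in the differences between lines was not tested. The germinal-centre markers, 5 genes, summed to 29.1 to 66.1 CPM in DOHH2, against 591 to 675 in U2932, while 5 activated-type markers summed to 901 to 1272 in DOHH2, against 476 to 640 in U2932. IRF4 made up most of the second sum, with a mean of 802 CPM in DOHH2, against 371 in U2932, and 2 of the 5, FOXP1 (6.82 against 43.3) and PIM1 (41.3 against 119), were lower in DOHH2. The sums run opposite to how the 2 lines are usually classed, and the lines are named here as the labels name them.

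A few hosts took most of the counts. GAS5, SNHG1, SNHG5 and SNHG3 held 51.0 to 58.0% of the counts in hosts in every library. In CPM of the counts in genes, with no scaling between libraries, the hosts summed to 1609.7, 2508 and 2518 in the DOHH2 TK 18 h libraries, against 2511 and 2522 in DOHH2 DMSO at 18 h. At 8 h they summed to 2555 to 2679 in DOHH2 TK libraries, against 2709 to 2995 in DOHH2 DMSO libraries. The groups of DOHH2 did not overlap at 8 h, and at 18 h TK replicate 1 was alone far below the other libraries. In U2932 the sums were 2006 to 2334 with TK, against 2301 with DMSO at 18 h, and 2157 and 2241 with TK, against 2085 to 2496 with DMSO at 8 h, and TK and DMSO overlapped at both times.

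**Figure D1:**
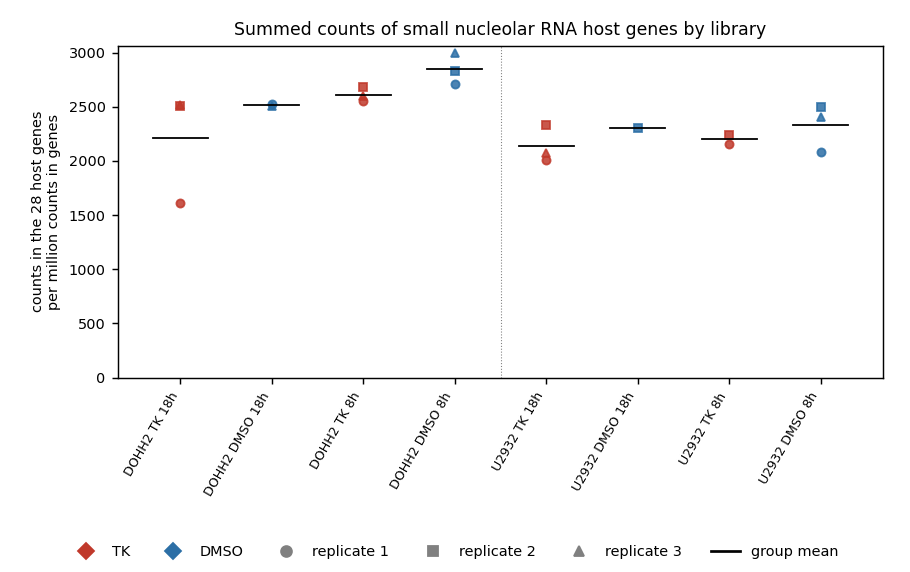
Summed CPM of the 28 host genes, relative to the counts in genes with no scaling between libraries (vertical axis, linear from 0) in each of the 20 libraries, by line, treatment and time; points are libraries, marker shapes are replicate numbers and black lines are group means. DOHH2 TK 18 h replicate 1 lies at 1609.7, and the other 19 libraries lie between 2006 and 2995.

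Levels of different hosts were compared per kilobase of annotated exon (CPM divided by the union of the exons in GENCODE v29). Retained-intron transcripts lengthen that union, so the values understate genes that have them. GAS5, named for its accumulation in growth-arrested cells, had a median of 112 CPM per kilobase over the 20 libraries. SNHG5, host of SNORD50A and SNORD50B, had 112 and SNHG1, host of the SNORD25 to SNORD31 group, had 105. SNHG8 had 87.9, SNHG6 72.0, DANCR 65.0, ZFAS1 57.3, SNHG19 49.3 and SNHG3 47.4. At the low end were SNHG25 with 1.08, SNHG14 with 0.709 and SNHG22 with 0.0902 CPM per kilobase. The exon union of SNHG14 is 43324 bases long, that of SNHG19 342 bases. The libraries of GAS5, SNHG5 and SNHG1 overlapped on this scale, and their order is not separated. Among the 23 hosts with more than 1000 counts in total, the highest library exceeded the lowest by 1.91-fold for DANCR up to 4.74-fold for SNHG6. Without DOHH2 TK 18 h replicate 1 that fold was 2.50 for SNHG6, and the range was 1.54-fold for GAS5 to 4.60-fold for SNHG26. SNHG22 had 3 to 23 counts in a library and SNHG25 3 to 36, so their levels rest on few counts.

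**Figure D2:**
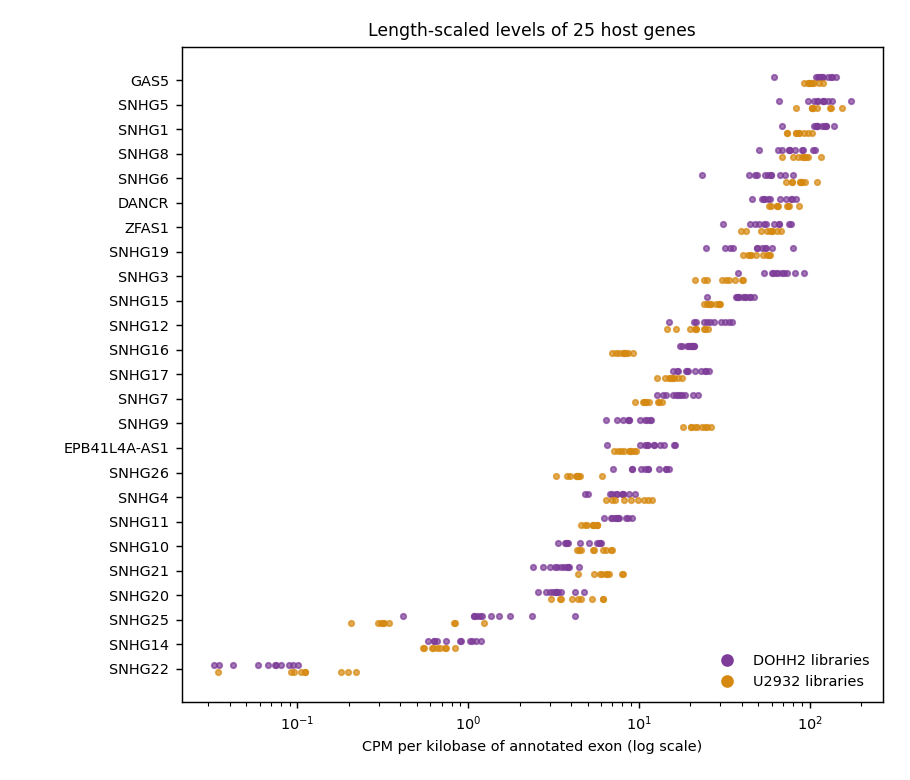
CPM per kilobase of annotated exon (horizontal axis, log scale) of the 25 tested hosts, ordered by their median over 20 libraries; purple points are DOHH2 libraries and orange points U2932 libraries. GAS5, SNHG5 and SNHG1 lead with medians of 112, 112 and 105, and SNHG16, SNHG26, SNHG11 and SNHG9 are the hosts in which the 2 lines do not overlap when all 20 libraries are counted. The share of all genes without overlap was not counted.

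TK against DMSO was the comparison named in the study's title. In no line and at no time did a host pass an adjusted p of 0.05 (edgeR quasi-likelihood test, Benjamini-Hochberg over 16478 genes), so no host is called higher or lower with TK. In DOHH2 the count was 0 of 25 at 18 h, also without TK replicate 1, where 0.0728% of all genes were called, and 0 of 25 at 8 h, where 0% were called. In U2932 it was 0 of 25 at 18 h, where 0.0182% were called, and 0 of 25 at 8 h, where 0% were called. With so few calls over all genes, a count of 0 among 25 is near the background. At an unadjusted p under 0.05, DOHH2 had 6 hosts at 18 h (against 8.56% of all genes) and 4 at 8 h (against 3.02%), and all 10 of these values were negative. Without TK 18 h replicate 1 the count at 18 h was 3 (DANCR, SNHG10 and SNHG19), against 11.3% of all genes. U2932 had 5 at 18 h (against 7.45% of all genes), 4 of them negative, and 2 at 8 h (against 1.67%), both negative. Other tests gave 3 hosts by DESeq2 and 3 by limma voom in DOHH2 at 18 h, 0 by DESeq2 and 1 by voom in U2932 at 18 h, and 0 by both at 8 h in both lines. Over all 16478 genes DESeq2 called 90 in DOHH2 and 60 in U2932 at 18 h, where edgeR called 12 and 3, and 0 at 8 h in both lines. Counts over all genes by voom are not given here, so its host counts are descriptions.

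The log2 changes of the hosts were mostly below 0 in DOHH2. At 18 h the median was -0.22 and 23 of 25 values were negative, against a median of 0.02 and 45.9% negative over all genes. Without TK 18 h replicate 1 the median was -0.14 and 17 of 25 were negative. At 8 h the median was -0.16 and 21 of 25 were negative, against 0.01 and 46.2% over all genes. In U2932 the median was -0.06 at 18 h with 13 of 25 negative, and -0.03 at 8 h with 16 of 25 negative, against 50.2% and 49.6% negative over all genes. Every TK library lay below every DMSO library for 12 hosts in DOHH2 at 18 h (13.2% of all genes), 4 at 8 h (2.85%), 9 in U2932 at 18 h (32.7%) and 2 at 8 h (7.24%). Every TK library lay above for 0 hosts in DOHH2 at 18 h (11.9% of all genes), 0 at 8 h (2.71%), 7 in U2932 at 18 h (31.2%) and 1 at 8 h (6.73%). The 0 at 18 h in DOHH2 rests on TK replicate 1: without it, GAS5, SNHG1, SNHG5, SNHG22, SNHG26 and ZFAS1, 6 hosts, lay above (28.2% of all genes), and 12 still lay below (28.3%). Hosts of 1 comparison share its libraries, so these counts are descriptions.

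**Figure D3:**
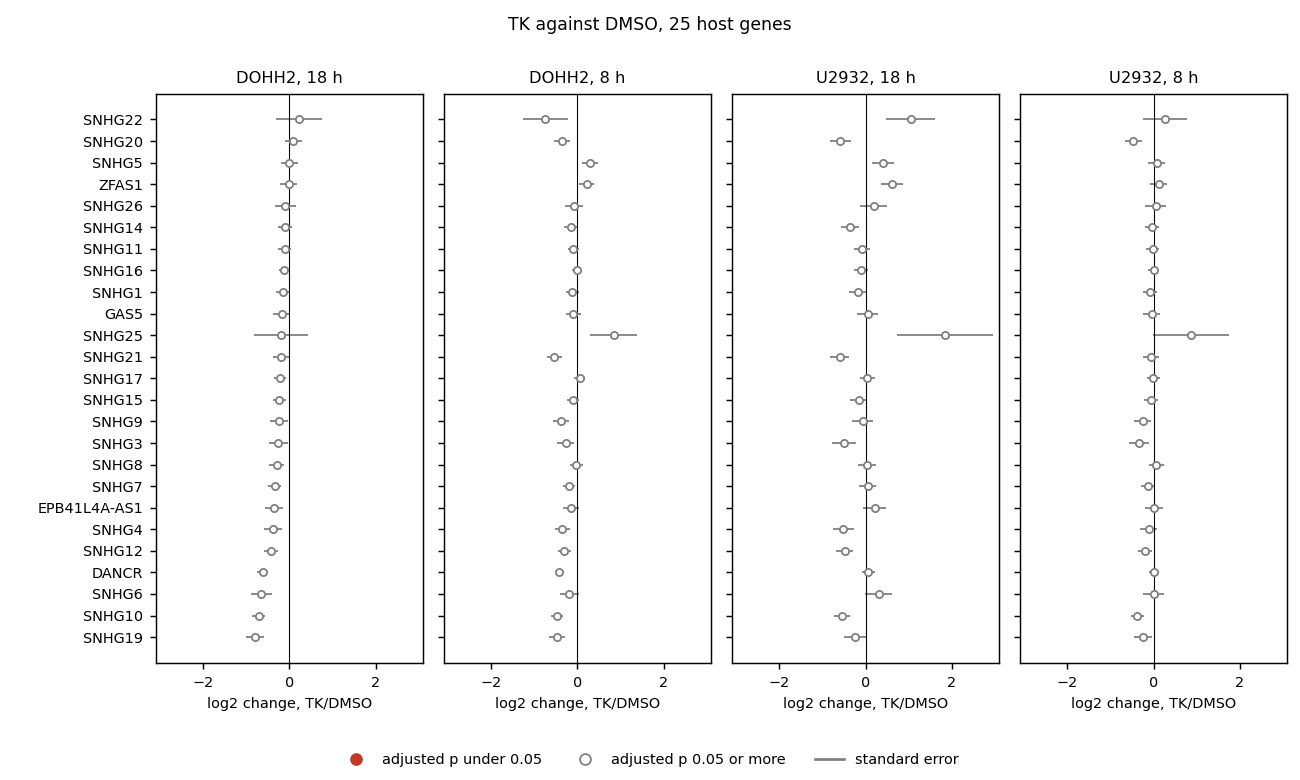
Log2 change of TK over DMSO (horizontal axis) of 25 hosts in DOHH2 at 18 h and 8 h and U2932 at 18 h and 8 h; points are edgeR estimates, bars are 1 standard error, and every point is open because no host passed an adjusted p of 0.05. In DOHH2 at 18 h, 23 of 25 points lie left of 0, with SNHG19, SNHG10, SNHG6 and DANCR the farthest.

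DANCR, a differentiation antagonist first described in progenitor cells and host of SNORA26, lies at chr4:52712404-52720351 (GRCh38, plus strand). It had 104, 123 and 135 CPM in the DOHH2 TK 18 h libraries, against 191 and 179 CPM in DOHH2 DMSO at 18 h. At 8 h it had 123, 131 and 119.5 CPM with TK in DOHH2, against 166, 153 and 180 with DMSO. Every TK library was below every DMSO library at both times in DOHH2. The log2 change was -0.61 ± 0.12 (SE) at 18 h with an adjusted p of 0.0685 (edgeR), and over its 15 alternatives the adjusted p ran from 0.000657 to 0.769, with 5 under 0.05. Without TK 18 h replicate 1 it was -0.52 with an adjusted p of 0.0916. At 8 h the log2 change was -0.42 ± 0.11 with an unadjusted p of 0.00139 and an adjusted p of 1. In U2932, DANCR had 172, 199 and 168 CPM with TK at 18 h, against 171 with DMSO, and 149.6 and 137 with TK at 8 h, against 132, 148 and 147 with DMSO, and the changes were 0.07 and 0.01. The difference of the TK effect between lines, DOHH2 minus U2932, was -0.68 ± 0.20 at 18 h (unadjusted p 0.00329, adjusted p 0.689, and -0.59 without TK replicate 1) and -0.43 ± 0.17 at 8 h (unadjusted p 0.0193, adjusted p 1), so the difference between lines did not pass either.

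SNHG10, host of the small Cajal body RNA SCARNA13, was the host with the smallest p in U2932 and the second smallest in DOHH2. It had 6.55, 7.33 and 7.19 CPM in DOHH2 TK 18 h libraries, against 11.4 and 11.7 in DOHH2 DMSO, and 8.79, 7.47 and 7.26 with TK at 8 h, against 11.1, 9.89 and 11.5 with DMSO. In U2932 it had 8.41, 10.4 and 8.71 CPM with TK at 18 h, against 13.4 with DMSO, and 10.6 and 8.88 with TK at 8 h, against 11.9, 12.4 and 13.5 with DMSO. Every TK library lay below every DMSO library in all 4 comparisons. The log2 changes were -0.71 ± 0.15 (-0.66 without TK replicate 1) and -0.47 ± 0.14 in DOHH2 at 18 h and 8 h, and -0.54 ± 0.18 and -0.37 ± 0.15 in U2932 at 18 h and 8 h. The adjusted p was 0.104 in DOHH2 at 18 h (0.000675 to 0.938 over 15 alternatives, 3 under 0.05), 0.512 in U2932 at 18 h (0.025 to 0.977 over 13, 2 under 0.05) and 1 at 8 h in both. Its exons overlap those of GLRX5 on the other strand by 391 bases, and whether counting used the strand is not given.

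SNHG12, host of SNORD99 and SNORA61, was the other host with all TK libraries below all DMSO libraries in all 4 comparisons. Over all genes this held for 11 of 16478 (0.0668%), and the reverse order held for 0 hosts and for 0.0303% of all genes. Without DOHH2 TK 18 h replicate 1 it held for the same 2 hosts and 0.0971% of all genes. Both hosts were noticed after their values were seen, so the 2 of 25 is a description. SNHG12 had 64.0, 91.9 and 89.8 CPM in DOHH2 TK 18 h libraries, against 112 and 107 in DMSO, and 129, 117 and 103 with TK at 8 h, against 150.1, 136 and 144 with DMSO. In U2932 it had 62.3, 91.7 and 70.2 CPM with TK at 18 h, against 104 with DMSO, and 85.2 and 90.8 with TK at 8 h, against 91.95, 108 and 102 with DMSO. Its log2 changes were -0.41 (-0.27 without TK replicate 1) and -0.30 in DOHH2 at 18 h and 8 h and -0.48 and -0.20 in U2932 at 18 h and 8 h, none past the threshold. A negative log2 change in all 4 comparisons was seen in 11 of 25 hosts (44.0%, against 9.46% of all genes) and a positive one in all 4 in 0 of 25 hosts (against 10.3%). Without DOHH2 TK 18 h replicate 1, SNHG1 had a positive change there, so that 10 hosts were negative in all 4 (against 8.87% of all genes) and 3, SNHG5, SNHG25 and ZFAS1, were positive in all 4 (against 9.04%). The 11 were SNHG1, SNHG3, SNHG4, SNHG9, SNHG10, SNHG11, SNHG12, SNHG14, SNHG15, SNHG19 and SNHG21, and the 4 comparisons share no library.

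SNHG19, host of SNORD60, had 8.46, 10.9 and 11.7 CPM in DOHH2 TK 18 h libraries, against 19.04 and 16.8 in DMSO, which gave a log2 change of -0.79 ± 0.20 with an adjusted p of 0.239 (0.00414 to 0.943 over 15 alternatives, 4 under 0.05). Without TK replicate 1 the change was -0.67. At 8 h it had 18.6, 16.9 and 12.1 with TK, against 18.0, 20.5 and 27.3 with DMSO, so the groups overlapped there and the log2 change was -0.47 ± 0.18. SNHG6, host of SNORD87 on chromosome 8, had 29.03, 59.7 and 61.2 CPM with TK at 18 h, against 83.4 and 73.7 with DMSO in DOHH2, a log2 change of -0.65 ± 0.24 that was -0.38 without replicate 1. Its exons overlap those of MCMDC2 on the other strand by 365 bases. In U2932 at 18 h, where DMSO is 1 library, SNHG20 and SNHG21, hosts of SCARNA16 and SCARNA15, had log2 changes of -0.59 and -0.60 and ZFAS1, host of the SNORD12 group, of 0.60, with adjusted p of 0.609, 0.552 and 0.627. ZFAS1 had 136, 152 and 144 CPM with TK, against 94.8 with DMSO, while in DOHH2 at 18 h it had 69.5, 114 and 125 with TK, against 101 and 107 with DMSO. The difference of the TK effect on ZFAS1, DOHH2 minus U2932, was -0.62 with an adjusted p of 0.813, and -0.41 without TK 18 h replicate 1 of DOHH2. At 8 h the other hosts among the 5 with the smallest p had an adjusted p of 1. In DOHH2, SNHG21 had 2.54, 3.38 and 2.90 CPM with TK, against 4.10, 4.01 and 4.72 with DMSO, a log2 change of -0.54 ± 0.17, and SNHG9 had a log2 change of -0.38 ± 0.18. The SNHG21 groups did not overlap and those of SNHG9 did. In U2932, SNHG20 had 21.2 and 27.8 CPM with TK, against 26.9, 37.4 and 37.7 with DMSO, a log2 change of -0.47 ± 0.20, and SNHG3 and SNHG9 had log2 changes of -0.34 ± 0.22 and -0.26 ± 0.20. All 3 of these hosts overlapped between TK and DMSO. None of the 4 tests of a difference of TK effects called a host (edgeR), where 0%, 0.0243%, 0.0121% and 0.00607% of all genes were called between lines at 8 h, between lines at 18 h, between times in DOHH2 and between times in U2932. At an unadjusted p under 0.05 the hosts were 1, 3, 0 and 0 in that order, against 1.92%, 6.17%, 4.32% and 3.11% of all genes, and DESeq2 and voom called 0 hosts in each. Over all 16478 genes DESeq2 called 0, 23, 7 and 1 in the same order.

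**Figure D4:**
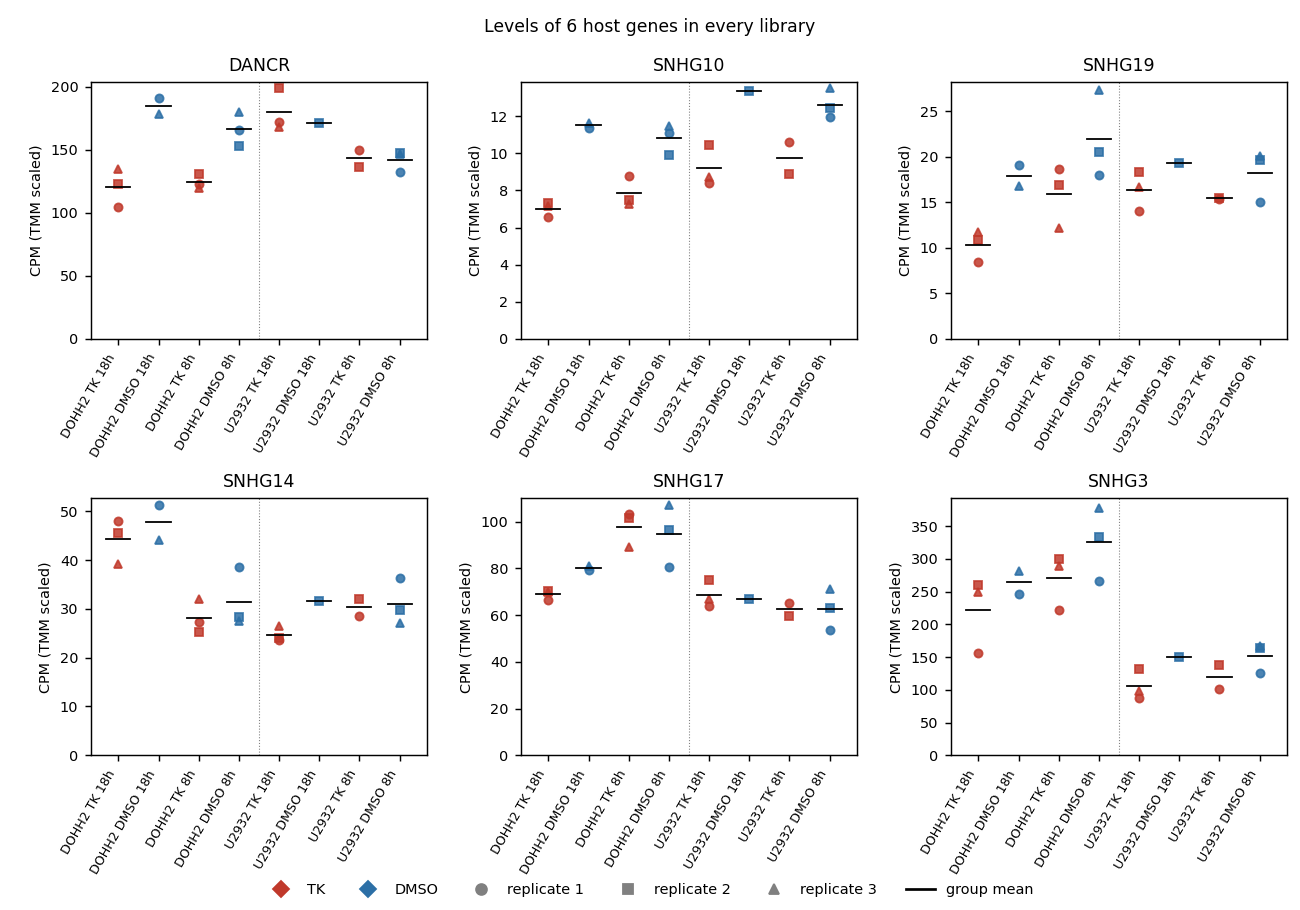
CPM (vertical axes, linear from 0) of DANCR, SNHG10, SNHG19, SNHG14, SNHG17 and SNHG3 in all 20 libraries, by line, treatment and time; points are libraries, shapes are replicate numbers and black lines are group means. SNHG10 lies lower with TK in all 4 pairs of groups, DANCR lies lower with TK in DOHH2 at both times, and SNHG3 lies higher in DOHH2 than in U2932.

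Between the lines, 10 to 17 of the 25 hosts passed in each comparison, and SNHG16, SNHG26 and SNHG3 were higher and SNHG9 and SNHG21 lower in DOHH2 throughout. DOHH2 against U2932 called 17 of 25 hosts with TK at 18 h (7 higher and 10 lower in DOHH2, 68.0% in all, against 34.2% higher, 34.9% lower and 69.2% in all over all genes) and 10 of 25 with DMSO at 18 h (7 higher and 3 lower, against 25.4%, 26.9% and 52.3%). At 8 h it called 15 of 25 with TK (12 higher and 3 lower, against 30.7%, 32.1% and 62.8%) and 14 of 25 with DMSO (11 higher and 3 lower, 56.0% in all, against 33.0%, 34.9% and 67.8%). Read against the background, these shares are no result about the hosts as a group. With TK at 18 h the count was 16 without DOHH2 TK 18 h replicate 1 (8 higher and 8 lower, against 33.8% and 34.9% of all genes). There EPB41L4A-AS1 was gained and SNHG5 and ZFAS1 were lost. With TK at 8 h the count was 9 without U2932 TK 8 h replicate 2, a description, as the share over all genes is not given here. With DMSO at 8 h, where the replicate numbers of the 2 lines deviate together, the replicate block also called GAS5 (log2 difference 0.34, adjusted p 0.0483) and SNHG4 (-0.36, 0.0353). In all, 5 hosts were called with 1 sign in all 4 comparisons, against 44.4% of all genes (without DOHH2 TK 18 h replicate 1, EPB41L4A-AS1 was a sixth, against 44.1%), and the 4 comparisons use different libraries. SNHG16, host of SNORD1A, SNORD1B and SNORD1C, had 93.03, 108 and 112 CPM as lowest, median and highest of 11 DOHH2 libraries, against 37.2, 43.8 and 49.3 in 9 U2932 libraries. Its log2 differences were 1.33 ± 0.11, 1.34 ± 0.17, 1.24 ± 0.13 and 1.26 ± 0.11 with TK and DMSO at 18 h and TK and DMSO at 8 h, and the adjusted p was at most 1.57e-06. Across its alternatives the adjusted p reached at most 8.49e-05. The overlapping transcript AC015802.6 on the other strand shares 1639 bases of its exons.

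SNHG26, host of SNORD93, had 18.6, 29.5 and 39.6 CPM in DOHH2 as lowest, median and highest, against 8.61, 11.4 and 15.9 in U2932, and its log2 differences ran from 0.998 with TK at 18 h to 1.72 with DMSO at 8 h. SNHG3, host of SNORA73A and SNORA73B, had 156, 266 and 378 CPM, against 87.4, 132 and 166, and its log2 differences ran from 0.82 with DMSO at 18 h to 1.17 with TK at 8 h. The 2 lines of SNHG26 did not overlap, and in SNHG3 they met only at DOHH2 TK 18 h replicate 1. SNHG3 shares 242 exon bases on the same strand with RCC1, so its counts are uncertain. On the other side, SNHG9, host of SNORA78, had 3.52, 4.84 and 6.48 CPM in DOHH2, against 10.04, 12.1 and 14.6 in U2932, with log2 differences from -1.43 with TK at 18 h to -1.08 with DMSO at 8 h. SNHG21 had 2.54, 3.67 and 4.72 CPM in DOHH2, against 4.60, 6.75 and 8.44 in U2932, with log2 differences from -1.23 with TK at 8 h to -0.69 with TK at 18 h. Its exons share 768 bases with AC105339.2 on the same strand.

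A further group was higher in DOHH2 in some of the comparisons. Values are given for up to 10 hosts past the threshold in each comparison, so not every call is listed. SNHG15, EPB41L4A-AS1, SNHG11 and SNHG1 were each called higher in 3 of the 4 comparisons, and SNHG20 was called lower in 2. SNHG7, host of SNORA17A and SNORA17B, had 55.8, 73.7 and 96.0 CPM in DOHH2 as lowest, median and highest, against 41.4, 48.0 and 59.2 in U2932, with log2 differences of 0.65 with DMSO at 18 h (adjusted p 0.0146), 0.64 with TK at 8 h (0.00148) and 0.70 with DMSO at 8 h (0.000154). SNHG15, host of SNORA9, had 90.9, 149 and 171 CPM in DOHH2, against 87.9, 96.6 and 109 in U2932, with 0.65 with TK at 8 h (adjusted p 0.00131) and 0.69 with DMSO at 8 h (0.00021). EPB41L4A-AS1, host of SNORA13, had 21.9, 40.8 and 54.6 CPM in DOHH2, against 23.9, 29.2 and 32.2 in U2932, with 0.77 with DMSO at 18 h (adjusted p 0.0299) and 0.68 with DMSO at 8 h (0.00332). In these 3 hosts the lines overlapped only through DOHH2 TK 18 h replicate 1. Without it the lowest DOHH2 libraries had 136 CPM of SNHG15 and 33.7 CPM of EPB41L4A-AS1, above the highest U2932 libraries, SNHG7 was apart as well, and SNHG1 and SNHG3 did not overlap either, so that 9 hosts in place of 4 were apart between the lines. The share of all genes apart in this way was not counted, so the 9 and the 4 are descriptions and no result about the hosts as a group. SNHG17 was 0.65 higher with TK at 8 h on the log2 scale (adjusted p 0.000466), and SNHG14 was 0.59 higher with DMSO at 18 h (0.0343, with 5 of 10 alternatives under 0.05). Lower in DOHH2 were SNHG20 with DMSO at 18 h, with a log2 difference of -0.79 (adjusted p 0.0146), SNHG19 with TK at 18 h, with -0.66 (0.00351), and SNHG4, host of SNORA74A, with TK at 8 h, with -0.58 (0.016). SNHG4 and SNHG20 share exon bases on the same strand with MATR3 (626 bases) and SEC14L1 (460 bases), so their counts are uncertain. With DMSO at 18 h the U2932 group is 1 library.

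The 10 hosts called lower in DOHH2 with TK at 18 h included SNHG6 and DANCR. SNHG6 differed by -1.28 ± 0.22 with TK at 18 h (adjusted p 3.29e-05), against -0.32 with DMSO at 18 h, and by -1.004 with TK without replicate 1. DANCR differed by -0.57 ± 0.11 (adjusted p 0.000134) with TK at 18 h, against 0.11 with DMSO. The test of that change is the difference of TK effects between lines, which gave adjusted p of 0.749 for SNHG6 and 0.689 for DANCR at 18 h and did not pass. SNHG8, host of SNORA24, differed by -0.71 ± 0.15 (adjusted p 0.000393) and SNHG14 by 0.84 ± 0.15 (adjusted p 4.47e-05) with TK at 18 h. Without DOHH2 TK 18 h replicate 1 these log2 differences were -0.48 for DANCR, -0.58 for SNHG8 and 0.78 for SNHG14, -0.53 for SNHG19, and 1.39, 1.19, 1.27, -1.36 and -0.70 for SNHG16, SNHG26, SNHG3, SNHG9 and SNHG21, all still called. SNHG25 was called higher in DOHH2 in 3 comparisons, with log2 differences of 2.71 with DMSO at 18 h, 1.95 with TK at 8 h and 1.97 with DMSO at 8 h, on 3 to 36 counts per library. SNHG22 was called lower with TK at 18 h, with -1.33 (-1.24 without replicate 1), on 3 to 23 counts per library. Both hosts passed the filter of 0.288 CPM only through the line in which they were called higher. In U2932, SNHG25 reached it in TK 18 h replicate 2 alone (0.342 CPM), and SNHG22 had at most 0.26 CPM in DOHH2. Their calls, which the counts of hosts called between lines include, are therefore no support for a difference between the lines. Neighbouring hosts had no fixed relation. SNHG17 and SNHG11 lie 11.2 kilobases apart on chromosome 20 in opposite directions and had log2 differences of 0.60 and 0.64 in DMSO at 8 h. SNHG9 and SNHG19 lie 189.3 kilobases apart on chromosome 16 and had -1.08 and 0.27 there, and SNHG19 was not called. With TK at 18 h SNHG9 and SNHG19 were both called lower, with -1.43 and -0.66, and SNHG17 and SNHG11 had 0.01 and 0.39. Other neighbouring pairs are not given here.

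**Figure D5:**
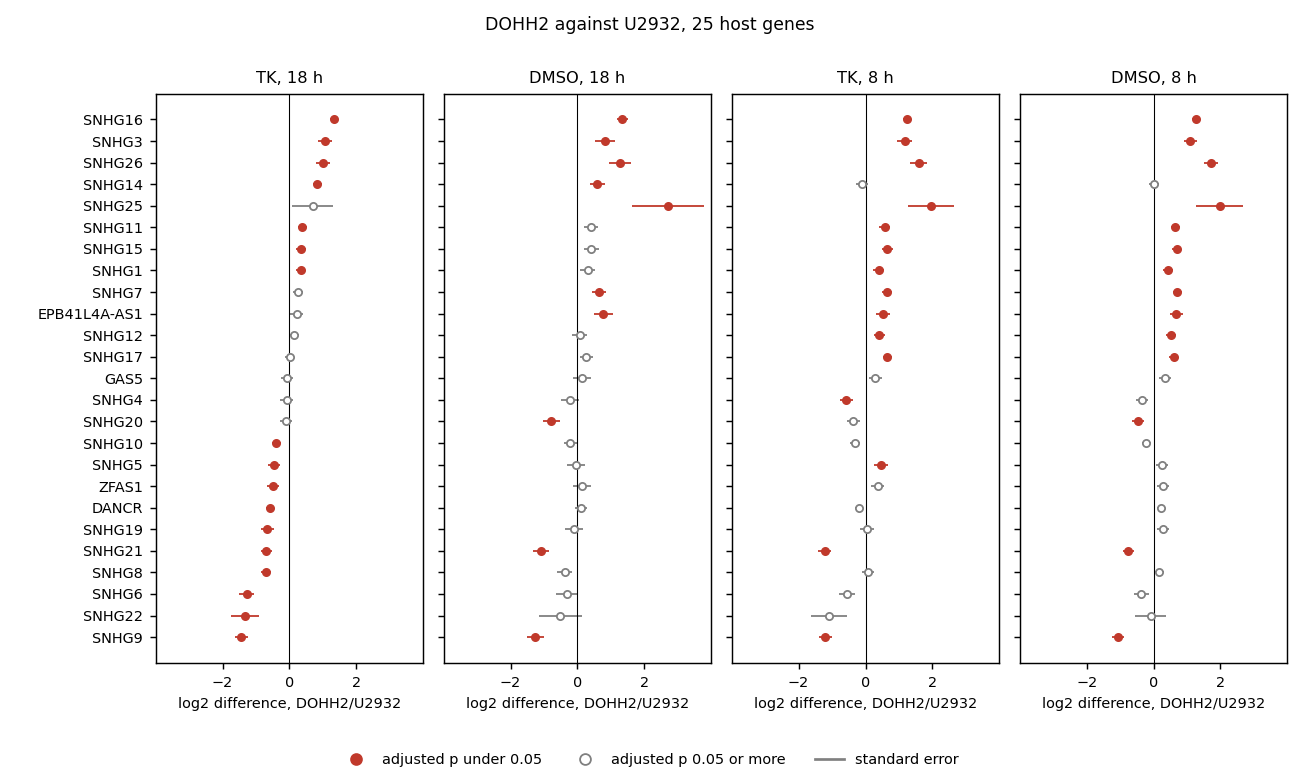
Log2 difference of DOHH2 over U2932 (horizontal axis) of 25 hosts with TK and DMSO at 18 h and TK and DMSO at 8 h; points are edgeR estimates, bars are 1 standard error, and filled red points passed an adjusted p of 0.05. SNHG16, SNHG3 and SNHG26 are filled right of 0 and SNHG9 and SNHG21 filled left of 0 in all 4 panels.

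Between times, 2 hosts passed, both in DOHH2 with TK. SNHG14, the long host of the imprinted SNORD115 and SNORD116 clusters, had 48.0, 45.6 and 39.2 CPM in DOHH2 TK at 18 h, against 27.3, 25.2 and 32.0 at 8 h, a log2 change of 0.65 ± 0.15 with an adjusted p of 0.0333 (0.00084 to 0.321 over 15 alternatives, 8 under 0.05). SNHG17, host of the SNORA71 group, had 66.3, 70.5 and 70.1 CPM at 18 h, against 103, 102 and 89.0 at 8 h, a log2 change of -0.51 ± 0.12 with an adjusted p of 0.0438 (0.0012 to 0.379, 7 under 0.05). The groups did not overlap in either host. The share of hosts called, 8.00%, stands beside 1.57% of all genes. Without DOHH2 TK 18 h replicate 1 the count is 0 (0.619% of all genes were called higher and 0.977% lower), and the adjusted p are 0.0614 and 0.0692. The count of hosts is also 0 without replicate 2 at 18 h and without replicate 1 or 2 at 8 h, 1 without replicate 3 at 18 h and 6 without replicate 3 at 8 h. Shares over all genes without these other libraries are not given here, so their host counts are descriptions. In DOHH2 DMSO, SNHG14 had 51.3 and 44.1 CPM at 18 h, against 38.6, 28.4 and 27.5 at 8 h, a log2 change of 0.60 with an adjusted p of 0.117. SNHG14 shares 2426 exon bases with SNRPN and 2 other transcripts on the same strand, so its counts are uncertain. No host was called between times in DOHH2 DMSO (edgeR 0, where 0.631% of all genes were called, 3 hosts and 10.8% of genes at an unadjusted p under 0.05, 1 host by DESeq2, which called 280 of 16478 genes, and 5 by voom, whose count over all genes is not given here). The same held for U2932 DMSO (0.0364% of genes called, 0 hosts and 11.4% of genes at an unadjusted p under 0.05, 0 hosts by DESeq2 and voom) and for U2932 TK (0.218% called, 4 hosts and 18.7% of genes at an unadjusted p under 0.05, 0 hosts by DESeq2 and voom).

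The genes around the hosts were followed in 4 lists. Protein-coding hosts of small nucleolar RNAs, mostly genes of ribosomal proteins and translation factors, were called by TK in 0 of 39 in each comparison. Their median log2 change with TK was -0.05 and 0.09 in DOHH2 at 18 h and 8 h and 0.36 and 0.08 in U2932 at 18 h and 8 h, and 7 and 29 of 39 were positive in DOHH2 at 18 h and 8 h and 35 and 36 of 39 in U2932 at 18 h and 8 h. In U2932 at 18 h the DMSO group is 1 library. HSPA8, a heat shock cognate chaperone whose introns hold SNORD14 RNAs, had the smallest p in that comparison, with a log2 change of 0.72 and an adjusted p of 0.246. Proteins of the small nucleolar ribonucleoprotein and its assembly factors were called in 0 of 20, nonsense-mediated decay factors in 0 of 18 and other TOP genes in 0 of 21 by TK in every comparison. The noncoding and the protein-coding hosts had medians of -0.16 and 0.09 in DOHH2 at 8 h and of -0.06 and 0.36 in U2932 at 18 h, and that difference was not tested. Between lines in DMSO at 8 h, 28 of 39 protein-coding hosts were higher and 1 lower in DOHH2, where 33.0% of all genes were higher and 34.9% lower. NCL, the nucleolar protein nucleolin and host of SNORD20, averaged 1814 ± 112 CPM in the DOHH2 libraries and 684 ± 34.2 CPM in the U2932 libraries (SD, n = 3 each), a log2 difference of 1.41 ± 0.14 with an adjusted p of 1.54e-08 (edgeR). Of the ribonucleoprotein factors, 5 were higher and 6 lower in DOHH2, with SHQ1, an assembly factor of H/ACA particles, at 26.4 ± 1.94 CPM in DOHH2, against 56.2 ± 1.31 CPM in U2932 (SD, n = 3 each). Of the decay factors 3 were higher and 3 lower, with the exon junction protein gene RBM8A at 198 ± 20.5 CPM in DOHH2, against 479.7 ± 5.41 CPM in U2932, and of the other TOP genes 10 were higher and 1 lower, with VIM, the filament protein vimentin, at the smallest p and a log2 difference of 8.43. These counts are of DMSO at 8 h and did not hold in every line comparison. Protein-coding hosts were 24 higher and 2 lower with TK at 8 h (30.7% and 32.1% of all genes). They were 11 and 1 with DMSO at 18 h (25.4% and 26.9%) and 8 and 12 with TK at 18 h (34.2% and 34.9%). With TK at 18 h the ribonucleoprotein factors were 4 and 13, the decay factors 4 and 5 and the other TOP genes 5 and 5. A lower level in every cell and fewer cells with the RNA cannot be told apart in bulk libraries.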

How the data were processed

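Per the labels, polyadenylated RNA of the 2 lines was sequenced. Per the submitters' processing notes, the authors used STAR, HTSeq and edgeR with the build GRCh38.p10, with no version, annotation or strand setting stated. The deposited files hold whole-number counts per gene, with 5 summary counts that were left out of library sizes and tests. Fits used R 4.3.3 and edgeR 4.0.16: TMM scaling, quasi-likelihood F tests over all 20 libraries with 8 group coefficients, 16 contrasts, Benjamini-Hochberg adjustment over the 16478 genes kept and a threshold of 0.05. Genes were kept where at least 3 libraries reached 0.288 CPM, equal to 10 counts in the median library. CPM are TMM scaled. Other settings tried were DESeq2 1.42.0, limma 3.58.1 voom with quality weights, scaling by RLE, the filter at 50 counts or omitted, fits on 1 line or on the groups compared, a replicate block, pooled DMSO, and fewer libraries. The code was tested on simulated data. Same-numbered libraries of DOHH2 and U2932 in DMSO at 8 h deviated together over genes (3 pairs, correlations of 0.19 to 0.39), so calls with the replicate block are also given there. Those of DOHH2 DMSO at 8 h and 18 h did so too (0.32 and 0.43). So did DOHH2 TK 18 h with U2932 TK 8 h, and DOHH2 TK 8 h with DOHH2 DMSO 18 h. No label gives a shared culture or day, so a pairing is not established. Exons and overlaps came from GENCODE v29 (GRCh38), windows and small RNA names from RefSeq, where windows reach 250 bases before and 50 after the start. Depth, 30363255 counts or more in genes per library, limits hosts with few counts.

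The members and gene lists were chosen with earlier results of these data known. The text names, in each TK comparison, the hosts with the 5 smallest p-values, in each line comparison up to 10 and in each time comparison up to 5 that passed, and of each list at most the 1 with the smallest p in 1 comparison, where the rule allowed up to 4. SNHG12 and SNHG10 as a pair, the neighbouring hosts and single values of other hosts were chosen after their values were seen.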

Additional observations from a re-analysis of the deposited data

How the results depend on the processing

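Of 821 values of named log2 changes under alternatives, 771 kept their side of the threshold, 33 lost it, 17 gained it and 0 changed sign. For TK in DOHH2 at 18 h, where 0 hosts passed, no filter gave 3 (DANCR, SNHG6, SNHG19), and DESeq2, voom and pooled DMSO libraries of both times gave 3 each (DANCR, SNHG10, SNHG19). Leaving out DOHH2 TK replicate 1 of both times gave 1 (DANCR). For TK in U2932 at 18 h, also 0, voom gave 1 (SNHG10), the groups compared alone 1 (ZFAS1) and pooled DMSO 4 (SNHG4, SNHG10, SNHG20, SNHG22). The difference of TK effects between lines at 18 h gave 1 (DANCR) with pooled DMSO, against 0. DOHH2 against U2932 in DMSO at 18 h gave 17 with the groups compared alone, against 10. For 18 h against 8 h in DOHH2 DMSO, no filter and DESeq2 gave 1 each and voom 5, against 0. For 18 h against 8 h in DOHH2 TK, no filter gave 8, DESeq2 and voom 6 each, and 1 line alone, the groups compared alone and leaving out TK replicate 1 of both times 0 each, against 2. In U2932 TK those 3 gave 2 each (SNHG4, SNHG5), against 0. Calls over all genes moved as well. For TK in DOHH2 at 18 h, no filter called 170 of 34160 genes and DESeq2 90 of 16478, against 12 of 16478 in the main fit. For times in DOHH2 TK these settings called 861 and 880, against 258, and for times in DOHH2 DMSO 445 and 280, against 104. Counts over all genes under the other settings are not given here, so these host counts are descriptions. The causes were not tested. Leaving out 1 library at a time gave 9 to 14 for the lines with TK at 8 h, 0 to 1 for times in DOHH2 DMSO and 0 to 6 in DOHH2 TK, and where an arm kept 1 library it was assumed to vary like the others.

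In the main fits the replicate numbers were not taken to pair the samples. Over 51 same-numbered pairs of all groups the correlation of deviations ran from -0.52 to 0.64, with 20 over 0.1. Besides the lines in DMSO at 8 h, every pair was over 0.1 for DOHH2 DMSO at 8 h and 18 h (0.32 and 0.43), a comparison tested here. The same held for DOHH2 TK 18 h with U2932 TK 8 h (0.28 and 0.38) and DOHH2 TK 8 h with DOHH2 DMSO 18 h (0.14 and 0.27), which were not compared. With the replicate block, hosts called between lines were 17 and 9 with TK and DMSO at 18 h and 16 and 16 at 8 h, 3 for times in DOHH2 TK, and 0 in the other 11 comparisons. Counts over all genes under the block are not given here, so these counts are descriptions. Depth limits SNHG22, SNHG25 and SNHG28, which had at most 36 counts in a library.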
